A study of Rattus norvegicus with 9 samples.

Results

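The comparison described here sets nucleus pulposus cells that received the BNPMT intervention against untreated control cells. It uses all 3 libraries labelled BNPMT and all 3 labelled NC, 6 of the 9 libraries of the series, and the members were chosen by their labels alone. Nucleus pulposus cells fill the soft centre of the intervertebral disc, and these were primary rat cells of wild-type genotype grown in medium with 10% serum. NC is the control group by its titles and by the design text of the series. SEN cells were made senescent with doxorubicin. BNPMT cells had the BNPMT intervention in that senescence model. The labels do not expand the name BNPMT and give neither a dose nor a time for it. The culture protocol attached to every library, NC included, describes doxorubicin at 200 nM over 24 h, followed by 6 days without it. NC was taken as not exposed because its titles and the design text call it the control. No label among the 9 libraries gives BNPMT without doxorubicin, so an effect of BNPMT itself and what doxorubicin left behind cannot be told apart in this contrast. The labels do not say whether the 3 libraries of a group came from separate animals or cultures, so the p-values measure only the spread between these libraries. The RNA was polyA-selected from bulk cultures, in which fewer cells of a type and less RNA per cell cannot be told apart.

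Senescent cells leave the cell cycle for good, usually with active p53 and its target Cdkn1a, and secrete cytokines, chemokines and matrix proteases, together called the senescence-associated secretory phenotype (SASP). Doxorubicin is a topoisomerase II poison that breaks DNA and is often used to induce this state in culture. The healthy nucleus pulposus is rich in aggrecan and type II collagen, lies far from blood vessels, and lives largely on glycolysis, exporting lactate.

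Levels are given as CPM, a gene's share of a library's total count scaled to 1000000, each group as its mean ± SD of 3 libraries. Changes are log2 differences of BNPMT minus NC with their standard error from edgeR's quasi-likelihood fit of all 9 libraries, and a gene is said to have risen or fallen where its Benjamini-Hochberg adjusted p over 14956 tested genes was under 0.05. CPM divides by the total alone, while the log2 changes also use TMM factors, which averaged 1.10 in NC, 1.14 in BNPMT and 0.802 in SEN, so levels in SEN read low beside the others. Total counts ran from 34514440 to 41873790 in NC and from 35094282 to 41971877 in BNPMT. Libraries of a group were alike, with Spearman correlations of 0.998 in each NC pair and of 0.994 to 0.998 in BNPMT, against 0.977 to 0.989 between the groups. On the first principal component of the 6 libraries, with 66.2% of the variance, NC lay between -36.0 and -30.6, BNPMT 2 and BNPMT 3 at 41.9 and 37.5, and BNPMT 1 nearer to NC at 20.4. Col2a1 and Acan, which encode type II collagen and aggrecan, were measured at 4571 ± 119 and 587 ± 10.4 CPM in NC. The notochordal marker Tbxt had 11 counts over the 3 NC libraries and 5 over the 3 BNPMT libraries and was not tested. The keratin Krt19 stood at 0.236 ± 0.199 CPM, so these 2 notochordal markers were near 0. Other markers of the type were not: the 26 in the list summed to 2616 to 2635 CPM in the NC libraries, with Lgals3 at 444 ± 9.13 and Car3 at 175 ± 2.85. Transcripts of fibroblast and contractile cells were high too, with Col1a1, of type I collagen, at 30449.5 ± 618 CPM and Acta2, smooth muscle actin, at 2387 ± 7.26.

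After doxorubicin and BNPMT, 7903 of 14956 genes (52.8%) differed from NC, 3933 higher (26.3%) and 3970 lower (26.5%). Most differences were small: 5180 of the 7903 were within 1.5-fold, and the median size over the 7903 was 0.46 on the log2 scale. Genes that changed more than 2-fold numbered 399 higher (2.67%) and 539 lower (3.60%). The values of the 2 groups did not overlap in 61.7% of the tested genes.

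The change followed gene length. A length for every gene was computed from its deposited counts and FPKM. The Spearman correlation of the log2 change with length across 14956 genes was -0.48, as a description over genes that share the same 9 libraries. For SEN minus NC, which shares the NC libraries, it was -0.03, although the shortest 10% of genes lay above the NC mean in SEN as well, by medians of 0.34, 0.15 and 0.19 in SEN 1, 2 and 3, and the longest 10% deviated by -0.06, 0.13 and 0.15. In the shortest 10% of genes, with a median length of 863 bases, the median change was 0.48, 875 genes rose and 61 fell. In the longest 10%, with a median length of 11577.5 bases, the median was -0.39, 77 rose and 807 fell. The trend differed in size between the treated libraries: the shortest genes were above the NC mean by a median of 0.26 in BNPMT 1, 0.59 in BNPMT 2 and 0.53 in BNPMT 3, and the longest deviated from it by medians of -0.25, -0.48 and -0.44. The cause of the trend was not tested.

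**Figure D1:**
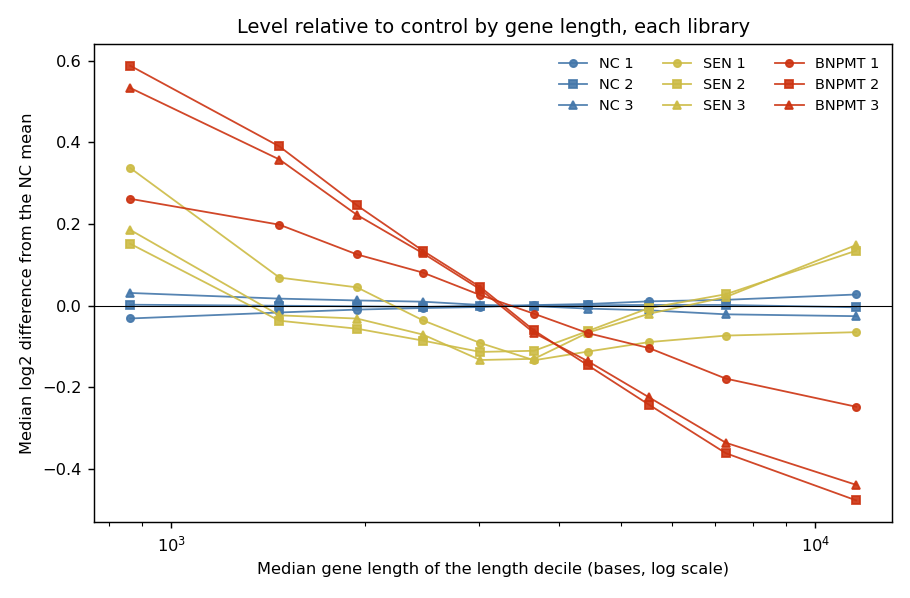
Median log2 deviation from the mean of NC (vertical axis) in 10 classes of gene length (horizontal axis, log scale, bases), 1 line for each of the 9 libraries. The 3 BNPMT lines slope from between 0.26 and 0.59 in the shortest class to between -0.48 and -0.25 in the longest, and BNPMT 1 is the shallowest of them.

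Every change was therefore computed again after each library's smooth curve on gene length was taken out, and is given below as the length-corrected value. In that fit 6885 genes (46.0%) differed from NC, 3436 higher (23.0%) and 3449 lower (23.1%). Counts of each list below are to be read beside these shares, and beside 26.3% higher and 26.5% lower as counted. The 2 fits called 5216 genes in the same direction, 2502 higher (16.7%) and 2714 lower (18.1%). The fit of the counts alone called 2539 further genes, the corrected fit called 1521 that the first did not, and 148 genes were called with opposite signs. The correction removes any change that genes of like length share, whatever its source, so for a group made of short or long genes alone the trend and a change of the group cannot be told apart. A gene given with a change but no corrected value was called in both fits with the same sign, and its value moved by less than 1.5 times. Members named only to account for a small count are those of the fit as counted and were picked out after their values were seen.

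Rises and falls were ranked among called genes that averaged 5 CPM or more in the 6 libraries of NC and BNPMT, whose groups did not overlap and whose sign was the same with the length correction. Genes below that level, some with larger fitted changes, were not ranked. The 10 largest such rises were in genes of several functions, and the first was Slc16a3, which encodes the lactate exporter MCT4. It read 4.23, 4.45 and 4.90 CPM in NC, 0.938, 1.22 and 0.820 in the SEN libraries and 54.1, 56.7 and 53.6 in BNPMT, so all 3 treated libraries lay far above every other library. Its log2 change was 3.54 ± 0.09 (adjusted p = 3.01e-11), and 3.48 with the length correction. Aldh3a1, an aldehyde dehydrogenase, went from 1.12 ± 0.259 to 10.6 ± 0.541 CPM (log2 change 3.18 ± 0.16). Mmp3, the protease stromelysin 1, read 13.4, 13.3 and 14.2 CPM in NC and 81.1, 90.0 and 89.3 in BNPMT, without overlap, a change of 2.62 ± 0.07 (adjusted p = 2.96e-11). Its level in SEN was 101 ± 2.64 CPM. Esm1, a secreted endothelial proteoglycan also known as endocan, rose from 2.65 ± 0.377 to 11.6 ± 0.758 CPM. Cst6, an inhibitor of cysteine proteases, rose by 2.05 ± 0.14 and Dio3, the deiodinase that inactivates thyroid hormone, by 2.0 ± 0.08. Klhl40, an adaptor of a ubiquitin ligase best known from muscle, and Tnfrsf22, a decoy receptor of the TNF family, rose by 2.24 ± 0.10 and 1.88 ± 0.10. In SEN, Tnfrsf22 stood at 217 ± 6.89 CPM, against 8.68 ± 0.761 in NC and 33.0 ± 4.45 in BNPMT.

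The metallothioneins Mt1 and Mt2A, small cysteine-rich proteins that bind zinc and copper, were both among the 10 largest rises over 5 CPM. Mt1 read 6.37, 7.78 and 8.31 CPM in NC and 30.6, 39.2 and 37.9 in BNPMT, a change of 2.20 ± 0.12 (adjusted p = 1.96e-08). Mt2A read 18.5, 20.2 and 19.1 CPM in NC and 67.2, 80.6 and 84.7 in BNPMT, a change of 1.96 ± 0.11 (adjusted p = 4.06e-08). The groups did not overlap for either gene, and BNPMT 1 was the lowest of the treated libraries for both. Their lengths, computed from counts and FPKM, were 389 and 383 bases, near the short end, and the corrected values were 1.58 and 1.33. Since these genes move together and lie side by side, their promoters are shown, from 250 bases before to 50 after the start of the gene (RefSeq, assembly GRCr8, minus strand of chr19:10832926-10833225 for Mt1 and of chr19:10838659-10838958 for Mt2A), printed 5′ to 3′ along the gene. Capitals mark matches on either strand to the core of the metal response element, TGCACNC or TGCGCNC, of which there are 6 and 4. A match was found in 24.2% of 33469 rat promoter windows, so it is a description of these letters and not of binding.
Mt1: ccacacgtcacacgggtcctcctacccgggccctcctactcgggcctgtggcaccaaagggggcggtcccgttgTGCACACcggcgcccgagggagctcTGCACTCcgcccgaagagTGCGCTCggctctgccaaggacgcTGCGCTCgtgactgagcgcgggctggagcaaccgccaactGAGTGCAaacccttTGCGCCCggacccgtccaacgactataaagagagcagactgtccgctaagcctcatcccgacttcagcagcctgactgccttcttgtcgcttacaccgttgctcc
Mt2A: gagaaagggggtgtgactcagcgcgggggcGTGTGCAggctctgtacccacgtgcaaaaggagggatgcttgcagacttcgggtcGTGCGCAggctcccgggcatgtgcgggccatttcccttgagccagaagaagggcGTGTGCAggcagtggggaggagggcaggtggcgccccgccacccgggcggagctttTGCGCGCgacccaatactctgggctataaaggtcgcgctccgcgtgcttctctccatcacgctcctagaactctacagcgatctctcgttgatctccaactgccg

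Among the falls ranked in the same way, over 5 CPM, the first was H19, an imprinted long noncoding RNA. H19 read 253, 246 and 248 CPM in NC, 717, 671 and 692 in the SEN libraries and 38.5, 41.3 and 37.2 in BNPMT. Thus BNPMT was the lowest of the 3 groups and SEN the highest, with no overlap. The change from NC was -2.73 ± 0.06 (adjusted p = 9.15e-12). The next were matrix genes: Col11a2, a chain of the cartilage collagen XI, fell by 2.65 from 33.6 ± 0.973 to 5.54 ± 0.960 CPM, and Eln, elastin, fell by 2.29 from 235 ± 3.62 to 49.7 ± 1.31. In SEN these genes stood at 208 ± 5.91 and 732 ± 17.1 CPM. Aoc3, an amine oxidase of vascular smooth muscle and fat, Hr, a corepressor named for hairlessness, and Fras1, a basement membrane protein, fell by between 2.02 and 2.05 on the log2 scale. In Gli3, Kank4 and Pi15 the treated libraries were spread more widely. Gli3, a transcription factor of hedgehog signalling, read 35.8, 34.0 and 30.4 CPM in NC and 14.9, 4.79 and 5.79 in BNPMT. Kank4, a cytoskeletal adaptor, read 8.87, 7.41 and 7.76 in NC and 3.25, 1.68 and 1.14 in BNPMT, and Pi15, a secreted protease inhibitor, 13.1, 11 and 10.8 and 4.50, 1.71 and 2.50. In each of the 3 genes BNPMT 1 was the nearest to NC. Without BNPMT 1 the changes of Gli3, Kank4 and Pi15 were -2.69, -2.56 and -2.49, against -2.02, -2.03 and -2.03 with it.

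**Figure D2:**
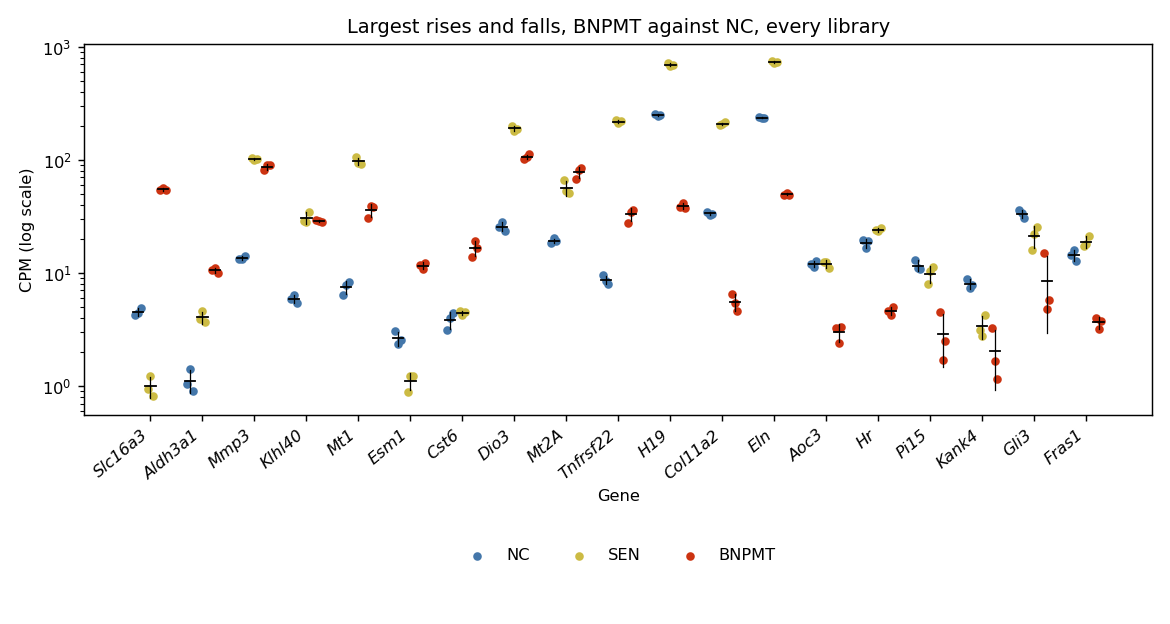
CPM on a log scale in every library of NC, SEN and BNPMT for the 10 largest rises and 9 of the 10 largest falls from NC to BNPMT among genes over 5 CPM, chosen for those values. Slc16a3 lies between 53.6 and 56.7 CPM in BNPMT and under 5 in NC, and H19 between 37.2 and 41.3 in BNPMT and between 246 and 253 in NC.

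Some genes linked to senescence differed between BNPMT and NC. Of 36 tested p53 targets 20 rose (55.6%) and 6 fell (16.7%), beside 26.3% and 26.5% of all genes, with a median of 0.24 against 0.00 over all genes. With the length correction 19 rose and 7 fell (median 0.22), beside 23.0% and 23.1% of all genes. Cdkn1a, the gene of the cyclin-dependent kinase inhibitor p21, read 131, 135 and 132 CPM in NC and 263, 284 and 279 in BNPMT. Every treated library lay above every control library, and SEN stood at 1061 ± 45.5 CPM. The change was 1.01 ± 0.06 (adjusted p = 2.98e-08). Mdm2, the ubiquitin ligase that degrades p53, read 68.7, 74.0 and 69.6 CPM in NC and 173, 166 and 171 in BNPMT, without overlap, a change of 1.21 ± 0.05, with SEN at 824 ± 21.6. Ccng1, a cyclin induced by p53, rose by 1.04 ± 0.07. Bax, the pore-forming cell death gene, rose by 0.91 ± 0.08 and by 0.46 with the correction, and Cdkn2a, the locus of p16 and p19Arf, by 1.03 ± 0.10 and 0.53, 2 short genes whose value the length trend moved. Bax stood at 91.2 ± 3.87, 111 ± 1.54 and 178 ± 19.9 CPM in NC, SEN and BNPMT, and Cdkn2a at 10.9 ± 0.187, 10.3 ± 0.846 and 23.1 ± 2.87. The corrected changes of SEN from NC were 0.48 for Bax and 0.05 for Cdkn2a. Gdf15, a stress cytokine, rose by 0.42 ± 0.12, but its corrected value of 0.11 did not pass (adjusted p = 0.346). Sesn2, a stress sensor shared with the ATF4 response, was the deepest fall of the list at -1.13, and it was named after its value was seen.

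SASP genes moved in both directions. Of 56 tested members 28 rose (50%) and 10 fell (17.9%), beside 26.3% and 26.5% of all genes (median 0.24). With the correction 23 rose and 11 fell (median 0.17), beside 23.0% and 23.1% of all genes. As counted, the members' changes ran from -1.55 to 4.91, the latter the largest of all tested genes. None of the members named in this paragraph is one that fell. Spp1, osteopontin, read 1212, 1247 and 1225 CPM in NC, 1432, 1400.0 and 1412 in the SEN libraries and 3629, 3867 and 3919 in BNPMT, where it was highest in all 3 libraries, a change of 1.58 ± 0.05 (adjusted p = 2.59e-10). Ptges, a prostaglandin E synthase, went from 4.49 ± 0.157 to 14.7 ± 0.924 CPM and Serpine2, a protease inhibitor, from 451 ± 4.48 to 816 ± 21.1. SEN stood at 4.81 ± 0.440 and 248 ± 13.8 CPM, with fitted changes from NC of 0.55 and -0.41. The chemokine Cxcl1 rose from 2.65 ± 0.370 to 6.99 ± 0.825 CPM (1.34 ± 0.12, corrected 0.92) beside 107 ± 3.53 in SEN. Ccl2, which attracts monocytes, rose from 2.41 ± 0.565 to 5.82 ± 1.16 CPM (1.22 ± 0.18, corrected 0.75). Il6 stood at 0.317 ± 0.250 CPM in NC and 0.504 ± 0.0386 in BNPMT and did not pass the test (adjusted p = 0.356).

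Of 37 tested immediate early and heat shock genes 10 rose (27.0%) and 14 fell (37.8%), beside 26.3% and 26.5% of all genes. The median of the list was -0.007, against 3.47 for SEN minus NC, which shares the NC libraries. With the length correction 7 rose and 20 fell, beside 23.0% and 23.1% of all genes. Atf3, a stress-induced transcription factor, read 18.3, 18.7 and 20.0 CPM in NC, 776, 712 and 715 in the SEN libraries and 13.9, 14.3 and 14.4 in BNPMT. SEN was far above both other groups, and BNPMT lay just below NC without overlap (change -0.47 ± 0.06, adjusted p = 5.81e-05). Myc, a driver of growth, fell by 1.05. Junb rose by 0.51 ± 0.06, and by 0.28 with the correction, and Maff by 0.48 ± 0.06. Hmox1, heme oxygenase 1, read 109.9, 110.1 and 111 CPM in NC and 69.5, 79.1 and 77.2 in BNPMT, against 2855 ± 97.2 in SEN. The treated libraries all lay below the control, with a change of -0.60 ± 0.06.

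Among the genes of the cell cycle the replication genes were lower. Of 56 tested S phase genes 34 fell and 3 rose, among the latter Tyms and Rfc4 (median -0.31), and with the correction 38 fell and 2 rose. Orc1 and Cdc6, which load the replicative helicase, went from 8.39 ± 0.923 to 3.69 ± 0.404 CPM and from 12 ± 0.832 to 5.71 ± 0.771, changes of -1.24 ± 0.12 and -1.12 ± 0.11. Uhrf1 and Dnmt1, which copy DNA methylation after replication, fell by 0.91 and 0.59, and Dnmt1 by 0.38 with the correction. Of 65 genes of G2 and mitosis 15 rose (23.1%) and 27 fell (41.5%), against 26.3% and 26.5% of all genes, so the share that rose was near the background. The median of the list was -0.12, and with the correction 13 rose and 25 fell (median -0.10). Pttg1, securin, rose from 11.7 ± 0.518 to 25.6 ± 3.66 CPM, and the mitotic kinesin Kif11 fell by 0.50. Ccnb1, cyclin B1, read 47.5, 52.2 and 52.9 CPM in NC and 59.9, 63.4 and 60.9 in BNPMT against 9.50 ± 0.574 in SEN. Its rise of 0.22 ± 0.07 (adjusted p = 0.0115) was lost without NC 1 (adjusted p = 0.0709) or without BNPMT 2 (0.0569). Mki67, a proliferation marker with a transcript of 10467 bases, fell by 0.61, and its corrected value was -0.24. Lmnb1, the nuclear lamin often lost in senescence, read 63.2, 62.1 and 60.5 CPM in NC and 49.8, 47.0 and 52.9 in BNPMT against 12.8 ± 1.17 in SEN, a fall of 0.36 from NC. Hmgb2, a chromatin protein, did not pass as counted (0.09 ± 0.08, adjusted p = 0.321), but its corrected value was -0.25 (adjusted p = 5.26e-04).

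**Figure D3:**
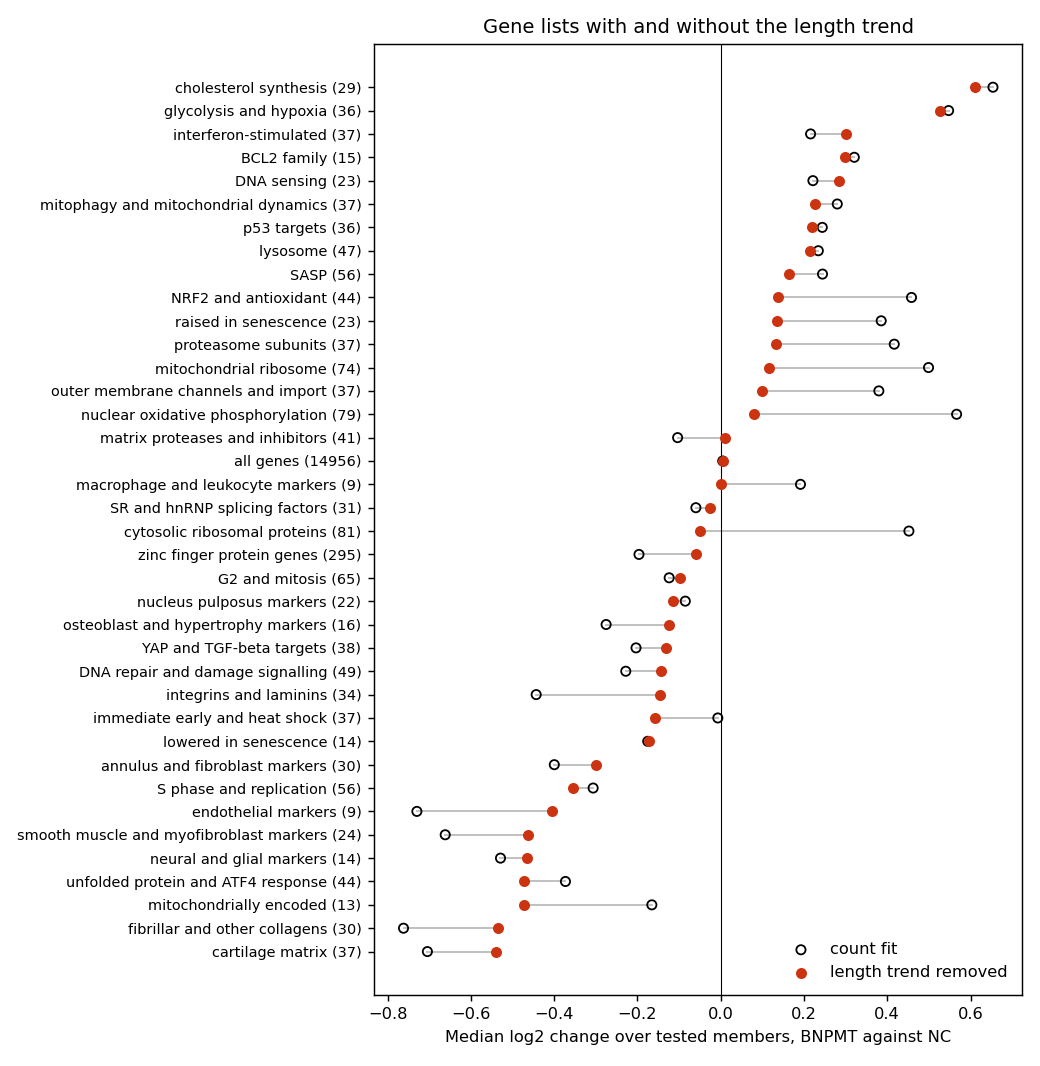
Median log2 change from NC to BNPMT of each gene list as counted and with the length trend removed (horizontal axis), with the list named on the vertical axis. Oxidative phosphorylation moves from 0.57 to 0.08 and ribosomal proteins from 0.45 to -0.05, while glycolysis and hypoxia stays at 0.55 and 0.53 and cholesterol synthesis at 0.65 and 0.61.

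Most genes of glycolysis rose with and without the length correction. Of 36 tested genes of glycolysis and hypoxia 26 rose and 3 fell, with a median of 0.55 and, with the correction, 26 and 4 with a median of 0.53. The list's median in single treated libraries, relative to the mean of NC, was 0.56 in BNPMT 1, 0.60 in BNPMT 2 and 0.55 in BNPMT 3. For SEN minus NC, which shares the NC libraries, the list's median was 0.68, so its rise was not particular to BNPMT. Tpi1, triose phosphate isomerase, read 243, 244 and 248 CPM in NC, 417, 382 and 382 in the SEN libraries and 653, 725 and 726 in BNPMT, a change of 1.47 ± 0.06 (adjusted p = 3.34e-09). Ldha, the subunit of lactate dehydrogenase that forms lactate, read 533, 540.2 and 541 CPM in NC and 1430.3, 1579 and 1577 in BNPMT, a change of 1.46 ± 0.06 (adjusted p = 3.34e-09), with SEN at 601 ± 32.5. For both enzymes BNPMT was the highest group and overlapped neither of the others. Aldoc, an aldolase, rose by 1.70 ± 0.08, Pygl, which releases glucose units from glycogen, by 1.60 ± 0.08, and Bnip3, a hypoxia-induced mitophagy receptor, by 1.23 ± 0.06. The glucose transporter Slc2a1 went from 65.4 ± 1.57 to 101 ± 1.81 CPM, beside 237 ± 3.92 in SEN. The 3 members that fell were Pfkfb3, Hk2 and Hif1a, the oxygen-sensitive transcription factor itself, at -0.55, -0.37 and -0.30. The call of Hk2 was lost without NC 1, BNPMT 2 or BNPMT 3 (adjusted p = 0.0823, 0.0757 and 0.0661) and that of Hif1a without NC 2, BNPMT 2 or BNPMT 3 (adjusted p = 0.057, 0.054 and 0.0615). Hk2 also did not pass when scaled by total counts alone (adjusted p = 0.0515), and in limma fits of log2(FPKM + 1) and log2(FPKM + 0.1) the adjusted p was 0.0592 and 0.0559 for Hk2 and 0.0536 and 0.056 for Hif1a. With a 1.5-fold minimum neither passed.

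The promoter of Ldha is shown because several of its neighbours in the pathway carry the same letters (RefSeq, GRCr8, plus strand, chr1:106507842-106508141, 250 bases before to 50 after the start, 5′ to 3′). Capitals mark the core of the hypoxia response element, ACGTG, on either strand, and the CACGTG holds 1 match on each strand, which gives 3 in all.
Ldha: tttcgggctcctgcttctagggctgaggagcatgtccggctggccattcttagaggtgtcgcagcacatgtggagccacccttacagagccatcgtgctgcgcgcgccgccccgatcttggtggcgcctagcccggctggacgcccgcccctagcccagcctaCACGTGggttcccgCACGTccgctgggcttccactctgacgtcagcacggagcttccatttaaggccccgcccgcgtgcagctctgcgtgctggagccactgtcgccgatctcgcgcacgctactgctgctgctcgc
Of the 32 tested members with a window, 19 (59.4%) held ACGTG in any of their windows, against 19.3% of all 33469 windows. The share of members counts genes and the other counts single windows, so they are unlike measures. The list was assembled from genes known for this pathway. The members' median change was 0.57 with a match and 0.52 without one, and 0.48 and 0.73 with the length correction.

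Most genes of cholesterol synthesis also rose in both fits. Of 29 tested 23 rose and 4 fell (median 0.65), and 24 and 3 with the correction (median 0.61). The list median was 0.68, 0.64 and 0.66 in BNPMT 1, 2 and 3. Acat2, an acetyl-CoA acetyltransferase at the head of the pathway, read 176, 165 and 168 CPM in NC, 111, 108 and 109 in the SEN libraries and 362, 401 and 407 in BNPMT, a change of 1.15 ± 0.06 (adjusted p = 1.59e-08). BNPMT was the highest group in each of its libraries. Insig1, which holds the sterol sensor in the endoplasmic reticulum, went from 223 ± 3.81 to 483 ± 8.04 CPM (1.06 ± 0.05), with SEN at 1563 ± 7.79. Cyp51 and Msmo1, enzymes that demethylate lanosterol and its products, rose by 0.78 ± 0.05 and 1.0 ± 0.06. The 4 members that fell as counted included Acaca and Fasn, which make fatty acids, and Srebf1, which encodes a transcription factor of lipid synthesis. Fasn fell by 0.28 and stood at 0.06 with the correction (adjusted p = 0.19), so its call ended there.

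**Figure D4:**
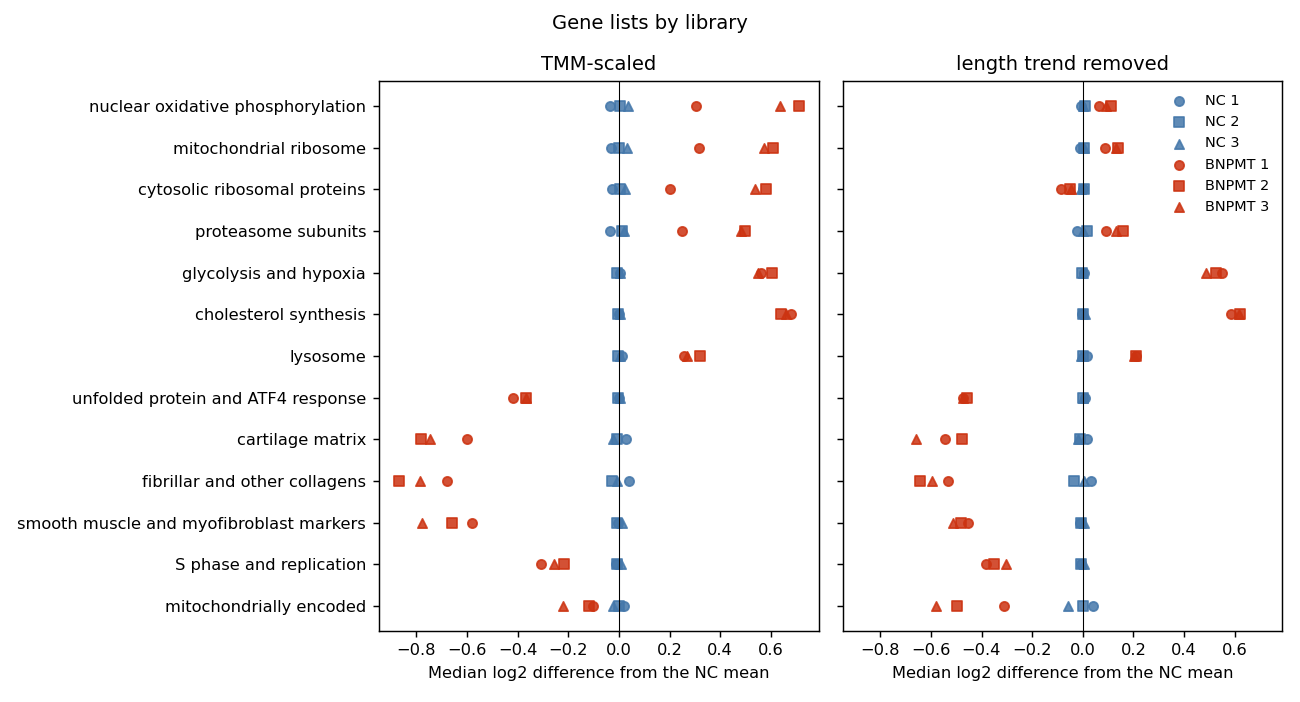
Median log2 deviation from the mean of NC of selected gene lists in each of the 6 libraries of NC and BNPMT, as counted and with the length trend removed. Cholesterol synthesis lies between 0.64 and 0.68 in the 3 BNPMT libraries, while oxidative phosphorylation spreads from 0.31 in BNPMT 1 to 0.71 in BNPMT 2 as counted and from 0.06 to 0.11 when corrected.

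Most genes of amino acid supply and of the unfolded protein response were lower in BNPMT than in NC. Of 44 tested members 32 fell and 3 rose (Pdia3, Cebpb and Sdf2l1), with a median of -0.37, and with the correction 37 fell and 3 rose (median -0.47). Per library the list median was -0.42, -0.37 and -0.37 in BNPMT 1, 2 and 3. Trib3, a pseudokinase induced by ATF4, read 84.4, 87.2 and 83.9 CPM in NC, 35.5, 35.1 and 35.1 in the SEN libraries and 39.7, 37.8 and 39.7 in BNPMT, a change of -1.17 ± 0.05 (adjusted p = 4.74e-09). The amino acid transporter Slc7a5 read 323, 318 and 315 CPM in NC and 165, 158 and 155 in BNPMT. Slc7a1, which carries cationic amino acids, read 123, 113 and 118 CPM in NC and 52.1, 41.4 and 43.5 in BNPMT. Their changes were -1.05 ± 0.05 and -1.42 ± 0.08, and no library of BNPMT reached NC. SEN stood at 229.7 ± 1.97 and 113 ± 9.64 CPM, with fitted changes from NC of -0.02 and 0.40. Aldh1l2, a mitochondrial enzyme of folate metabolism, fell by 1.04. Slc7a11, the cystine importer, fell by 1.37. Atf4 itself, named after its value was seen, fell by 0.29 and by 0.54 with the correction.

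The chaperone Hspa5, also named after its value was seen, read 1368, 1376 and 1380.1 CPM in NC and 1048, 1076 and 1099 in BNPMT, a fall of 0.41. Its promoter is shown because it carries the full ER stress response element (RefSeq, GRCr8, plus strand, chr3:38452766-38453065, 250 bases before to 50 after the start, 5′ to 3′). Capitals mark the match to CCAAT and CCACG with 9 bases between them, searched on both strands.
Hspa5: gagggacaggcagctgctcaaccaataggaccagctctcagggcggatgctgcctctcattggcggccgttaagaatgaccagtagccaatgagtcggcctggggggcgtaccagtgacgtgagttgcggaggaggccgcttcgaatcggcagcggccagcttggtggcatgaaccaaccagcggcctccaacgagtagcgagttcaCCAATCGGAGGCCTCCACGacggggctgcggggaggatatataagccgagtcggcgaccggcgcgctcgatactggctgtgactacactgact
Counted by window, the element was found in 22 of 33469 promoter windows (0.0657%). Counted by gene, an unlike measure, 7 of the 38 tested members of the list with a window held it in any window. They were Calr, Canx, Creld2, Dnajc3, Hsp90b1, Hspa5 and Xbp1. The median change of these 7 was -0.16, and that of the 31 without it -0.44, or -0.27 and -0.54 with the length correction. As counted, 4 of the 7 and 27 of the 31 were called, beside 52.8% of all genes. Calr, Canx and Hsp90b1 did not pass.

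Most matrix genes were lower in BNPMT than in NC. Of 37 tested genes of the cartilage matrix 27 fell and 1 rose (Ugdh), with a median of -0.70, and with the correction 29 fell and 2 rose (median -0.54). The median of the same list for SEN minus NC was 1.44. Col2a1 read 4690.1, 4453 and 4570.1 CPM in NC, 6574, 6406 and 6498 in the SEN libraries and 2056, 1883 and 1947 in BNPMT, a change of -1.27 ± 0.05 (adjusted p = 1.52e-09). Acan read 599, 583 and 580.0 CPM in NC, 644, 689 and 712 in the SEN libraries and 358, 304 and 304 in BNPMT, a change of -0.92 ± 0.06 (adjusted p = 1.97e-07). Both genes were lowest in BNPMT and highest in SEN, without overlap. Cilp, a cartilage protein that also rises with disc degeneration, fell by 1.83, and Fmod, fibromodulin, which organises collagen fibrils, by 1.19, from 219 ± 7.45 to 99.6 ± 2.44 CPM. Sox9, the transcription factor of cartilage, fell by 0.57.

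Of 30 other tested collagens 24 fell and 2 rose, Col7a1 and Col17a1, which belong to epithelial basement membranes (median -0.76). The median length of these transcripts was 6484 bases, and with the correction 21 fell and 3 rose (median -0.54). Col1a1, the main chain of type I collagen, read 31120.4, 29905 and 30323 CPM in NC, 30703, 30338 and 30507 in the SEN libraries and 14331, 12289.5 and 12496 in BNPMT, a change of -1.27 ± 0.06 (adjusted p = 4.74e-09) and of -1.06 with the correction. Every BNPMT library lay below every NC library, and the fitted change of SEN from NC was 0.46. Col8a2 and Col14a1 fell by 1.20 and 1.17. Itga11, a collagen receptor of mesenchymal cells, fell by 1.29, whereas Itga3, a laminin receptor, rose by 0.81 ± 0.07. Of 41 matrix proteases and inhibitors 10 rose (24.4%) and 17 fell (41.5%), beside 26.3% and 26.5% of all genes (median -0.10). With the correction 12 rose and 15 fell (median 0.01), beside 23.0% and 23.1% of all genes. Adamts5, an aggrecanase, read 45, 36.5 and 35.1 CPM in NC and 23.2, 14.8 and 15.5 in BNPMT (change -1.17 ± 0.14). Mmp13, a collagenase, rose by 0.57 ± 0.09 to 15.0 ± 0.699 CPM, and Timp3, an inhibitor of such proteases, fell by 0.86.

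**Figure D5:**
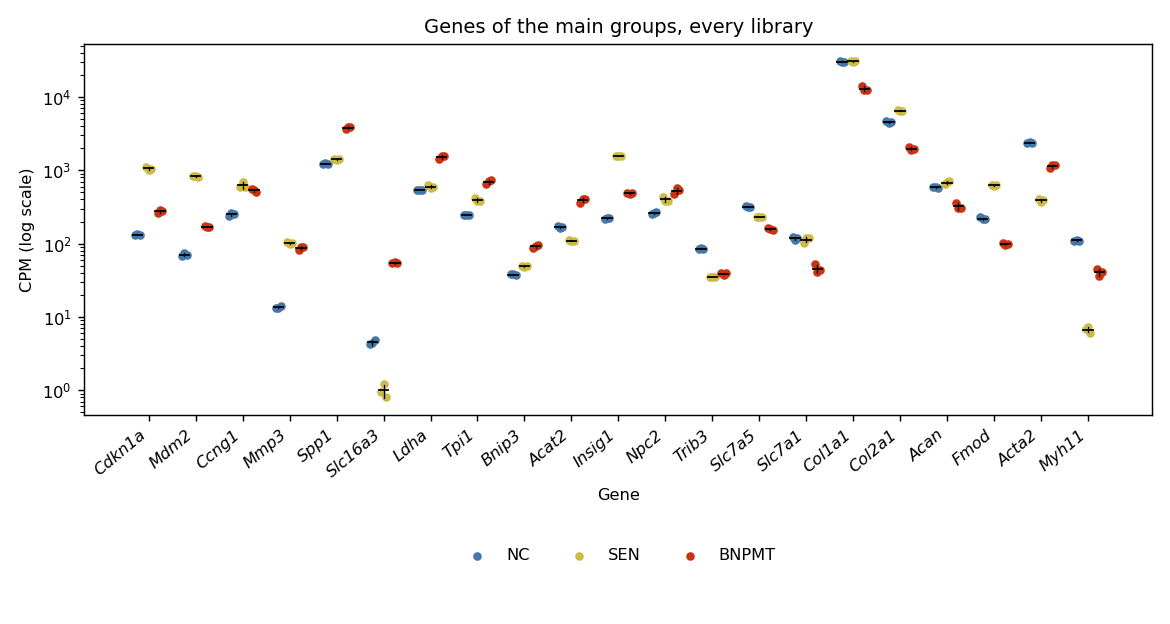
CPM on a log scale in every library of NC, SEN and BNPMT for genes of the main groups, with a horizontal mark at the mean and a bar for the SD. Ldha, Tpi1 and Acat2 are highest in BNPMT, Col2a1, Acan and Fmod lowest in BNPMT, and Cdkn1a and Mdm2 lie in BNPMT between NC and SEN.

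Markers of contractile cells fell together with the matrix. Of 24 tested smooth muscle and myofibroblast markers 16 fell and 3 rose (Des, Pdlim3 and Ckb), with a median of -0.66, and with the correction 17 fell and 1 rose. The summed level of the list was 12514 to 12633 CPM in the NC libraries and 8725 to 8820.2 in BNPMT. Acta2, smooth muscle actin, read 2381, 2395 and 2386 CPM in NC, 406, 365 and 396 in the SEN libraries and 1083, 1179 and 1172 in BNPMT, so BNPMT lay between the others, with a change of -1.11 ± 0.06 (adjusted p = 1.75e-08). Myh11, smooth muscle myosin, went from 110.3 ± 2.38 to 40.7 ± 4.95 CPM, and Myocd, the coactivator that drives these genes, from 15.4 ± 0.773 to 4.81 ± 1.23, while SEN stood at 6.70 ± 0.545 and 0.908 ± 0.298. Of 30 annulus and fibroblast markers 18 fell and 7 rose, and 19 and 7 with the correction (medians -0.40 and -0.30). Their summed level was 59625 to 61764 CPM in NC and 30699 to 35409 in BNPMT. Mfap4, a protein of elastic fibres, fell by 1.62. Whether the share of contractile or fibroblast-like cells had a part in the matrix result was not tested.

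Dkk2 and Igsf10, of which Dkk2 is a secreted modulator of Wnt signalling, were among the genes lower than NC in both BNPMT and SEN. Dkk2 stood at 8.01 ± 0.139 CPM in NC, 1.02 ± 0.115 in SEN and 2.37 ± 0.0948 in BNPMT, and Igsf10 at 159 ± 9.49, 28.7 ± 2.95 and 52.7 ± 10.4. Genes that rose in BNPMT without a rise in SEN included Krt7, an epithelial keratin, at 11.5 ± 1.32, 0.888 ± 0.495 and 37.4 ± 2.87 CPM in NC, SEN and BNPMT. Fabp3, a fatty acid carrier, stood at 26.1 ± 3.43, 15.2 ± 1.69 and 83.4 ± 12.9 CPM, and Inhbb, an activin subunit, at 2.68 ± 0.0754, 2.36 ± 0.551 and 9.60 ± 1.54. These genes were chosen for that pattern, so it is a description.

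Several groups of short transcripts rose as counted and lost most of the rise with the length correction. Of 79 tested nuclear genes of oxidative phosphorylation, with a median length of 809 bases, 78 rose and the remaining one, Cycs, did not pass (median 0.57), and with the correction 34 rose and 2 fell (median 0.08). Of 74 genes of the mitochondrial ribosome 65 rose and 1 fell, Mrps2 (median 0.50), and 27 and 4 with the correction. Of 81 cytosolic ribosomal protein genes 76 rose and the others did not pass (median 0.45), whereas 6 rose and 35 fell with the correction (median -0.05), so the direction of this group turned. Uqcrh, a subunit of complex III, read 67.9, 75.5 and 76.2 CPM in NC and 116, 148 and 146 in BNPMT, where BNPMT 1 was the lowest treated library. Its change of 0.85 ± 0.10 became 0.29 (adjusted p = 3.56e-05). Cox7a2, a subunit of cytochrome oxidase, moved from 0.83 to 0.25. Atp5f1d, a subunit of ATP synthase, moved from 0.74 to 0.41, and Mrps6, of the small mitochondrial ribosomal subunit, from 1.07 to 0.55, both still above NC. Rps28 and Rpl9, of the cytosolic ribosome, went from 0.72 and 0.55 to 0.07 and 0.04, which did not pass.

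Proteasome subunits and antioxidant genes also rose less with the correction. Of 37 proteasome genes 34 rose and 1 fell (Psmd14), and 20 and 3 with the correction, while the median went from 0.42 to 0.13. Psmd10 moved from 0.71 to 0.41, and Psma2 from 0.46 to 0.01, where its call ended. Of 44 tested genes of the NRF2 and antioxidant list 26 rose (59.1%) and 9 fell (20.5%), beside 26.3% and 26.5% of all genes (median 0.46). With the correction 19 rose and 11 fell (median 0.14), beside 23.0% and 23.1% of all genes. Ftl1, the ferritin light chain, read 1233, 1132 and 1196 CPM in NC and 2249, 2684 and 2656 in BNPMT, and its change of 1.04 ± 0.07 became 0.61. Gpx3, a secreted glutathione peroxidase, rose by 0.81 ± 0.05 (corrected 0.54). At the long end, of 295 zinc finger genes with a median length of 4397 bases 103 fell and 18 rose (median -0.20), and 63 and 23 with the correction (median -0.06). Integrins and laminins went from a median of -0.44 to -0.14.

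Single long and short genes showed the same dependence. Rbms3, an RNA-binding protein with a transcript of 18008 bases, read 33.3, 34.7 and 34.7 CPM in NC and 21.8, 20.1 and 24.0 in BNPMT, without overlap. Its change of -0.69 ± 0.08 (adjusted p = 1.90e-05) became -0.19 (adjusted p = 0.174). Agap1, with 27115 bases and a role in vesicle traffic, went from -0.65 to -0.07, and Tll1, a metalloprotease with 19344 bases, from -0.55 to -0.04. Ppia, the cyclophilin A often used as a reference gene, has 865 bases. It read 817, 811 and 813 CPM in NC and 1121, 1229 and 1237 in BNPMT, and its change of 0.51 ± 0.06 became 0.06 (adjusted p = 0.155). Ttc39b and Prr13 likewise lost their call, from -0.55 to -0.15 and from 0.53 to 0.07. These 6 were chosen because their call ended.

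The genes encoded by mitochondrial DNA did not rise with the nuclear genes of the same complexes. Of 13 tested 2 rose (ND3 and ND6) and 7 fell, with a median of -0.17, and with the correction 12 fell and ND6 did not pass (median -0.47). Their summed level was 41271 to 42508 CPM in the NC libraries and 37753 to 40607 in BNPMT. COX1, the catalytic subunit of cytochrome oxidase, read 15399, 15149 and 15039 CPM in NC and 13738, 11975 and 11819.5 in BNPMT, a fall of 0.33 (adjusted p = 2.86e-04) and of 0.60 with the correction. ND3, a complex I subunit of 348 bases, rose by 0.37 ± 0.08 as counted and fell by 0.29 with the correction, so its direction turned with the correction. The curve was fitted over all genes, and the median length in this list was 784 bases.

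Among genes of mitochondrial turnover and of the lysosome, rises outnumbered falls in both fits. Of 37 tested genes of mitophagy and mitochondrial dynamics 22 rose and 3 fell (among them Bcl2l13 and Mief1), and 23 and 1 with the correction (medians 0.28 and 0.23). Bnip3 read 38.0, 38.4 and 37.0 CPM in NC, 48.9 ± 1.40 in SEN and 88.1, 91.5 and 95.6 in BNPMT, and its NC and BNPMT values did not overlap. Bnip3l, a related receptor with 6164 bases, rose by 0.49 ± 0.05 (corrected 0.72). Map1lc3b and Gabarapl2, which coat the autophagosome, rose by 0.62 ± 0.06 and 0.70 ± 0.07, and by 0.44 for Gabarapl2 with the correction. Of 47 lysosomal genes 28 rose and 2 fell (Scarb2 and Ctsc), and 31 and 3 with the correction (medians 0.23 and 0.22). The median of the lysosomal list for SEN minus NC was 0.87, so it rose there as well. Npc2, which exports cholesterol from the lysosome, read 253, 260.3 and 271 CPM in NC, 436, 381 and 382 in the SEN libraries and 469, 565 and 544 in BNPMT (0.96 ± 0.08, corrected 0.61). The proteases Ctsl and Ctsb rose by 0.78 ± 0.06 and 0.55 ± 0.05 (corrected 0.47 and 0.36). Glb1, the source of senescence-associated beta-galactosidase, read 121, 114 and 121 CPM in NC and 118, 132 and 124 in BNPMT. These ranges overlapped and the gene did not pass (0.03 ± 0.06, adjusted p = 0.738).

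Channel and import genes of the mitochondrial outer membrane rose as counted, and fewer of them with the length correction. Vdac1, the main anion channel of the outer membrane, read 123, 124 and 126 CPM in NC, 76.0, 66.5 and 65.2 in the SEN libraries and 156, 159.7 and 156 in BNPMT. Its rise of 0.29 ± 0.06 (adjusted p = 0.00175) became 0.07 and did not pass with the correction (adjusted p = 0.225). Of 37 genes of that group 27 rose and 3 fell (Hk2, Mtx3 and Rhot1), and 14 and 4 with the correction. Of 15 BCL2 family genes 10 rose (66.7%) and 3 fell (20%, Bcl2, Bcl2l2 and Pmaip1), with the same counts when corrected. Of all genes 26.3% rose and 26.5% fell, or 23.0% and 23.1% when corrected. Bcl2, which restrains cell death, was near the floor at 0.607 ± 0.142 CPM in NC and 0.270 ± 0.168 in BNPMT, and its fall (adjusted p = 0.0336) did not pass without NC 1, NC 3, BNPMT 2 or BNPMT 3 (adjusted p = 0.116, 0.069, 0.0657 and 0.134).

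Of 23 tested genes of DNA sensing 11 rose (47.8%) and 7 fell (30.4%), beside 26.3% and 26.5% of all genes (median 0.22). The share that fell was near that of all genes. With the correction 12 rose and 3 fell (median 0.28), beside 23.0% and 23.1% of all genes. Sting1, the adaptor that answers cytosolic DNA, read 6.90, 5.80 and 5.95 CPM in NC, 6.20, 6.34 and 7.58 in the SEN libraries and 13.5, 14.6 and 10.6 in BNPMT, where it was highest (1.0 ± 0.13, adjusted p = 4.72e-05). Cgas, the sensor upstream of it, went the other way, from 7.57 ± 0.311 to 5.09 ± 0.115 CPM (-0.62 ± 0.11, corrected -0.39). Dnase2, which digests DNA in the lysosome, rose by 0.98 ± 0.07. Tlr9, an endosomal DNA receptor, had 1 count in NC, 6 in SEN and 0 in BNPMT over 3 libraries each and was not tested. Of 37 interferon-stimulated genes 16 rose and 3 fell (Gbp5, Ifit2 and Samhd1), and 17 and 5 with the correction (medians 0.22 and 0.30). Irf7 and Irf1, transcription factors of this response, rose from 2.92 ± 0.418 to 5.80 ± 0.327 CPM and from 9.80 ± 0.815 to 16.5 ± 0.301, while Ifit2, an antiviral effector, fell from 23.0 ± 0.853 to 15.3 ± 0.799.

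Of 49 tested genes of DNA repair 25 fell (51.0%) and 6 rose (12.2%), beside 26.5% and 26.3% of all genes (median -0.23). With the correction 16 fell and 7 rose (median -0.14). Together these were near the 46.0% of all genes that were called, but falls outnumbered rises, whereas 23.1% of all genes fell and 23.0% rose. Brca2 and Fancm, which act at stalled replication forks, fell by 1.17 and 0.92, with transcripts of 10762 and 11010 bases, and by 0.80 and 0.55 with the correction. Ercc1, of excision repair, read 33.0, 32.7 and 34.1 CPM in NC and 59.1, 65.6 and 66.3 in BNPMT, a rise of 0.89 ± 0.06 without overlap.

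Markers of blood and vessel cells were low in both groups. Summed levels are over all members of a list, tested or not. The summed level of 16 macrophage and leukocyte markers was 14.9 to 15.9 CPM in NC and 19.5 to 21.3 in BNPMT. Most of it was Cd14, at 11.4 ± 0.353 and 16.6 ± 1.12 CPM, while Itgam and Cd79b were at 0 in all NC libraries. That of 17 endothelial markers was 75.8 to 78.1 and 68.5 to 72.8 CPM, with Pecam1 at 0.0165 ± 0.0285 CPM in NC. That of 8 erythroid markers was 0.203 to 0.525 and 0.454 to 0.691 CPM. Of 22 tested markers of the labelled type 4 rose (18.2%) and 6 fell (27.3%) as counted, which is near or under the 26.3% and 26.5% of all genes. With the length correction 5 rose and 8 fell, beside 23.0% and 23.1% of all genes, so the share that fell was above that of all genes. Lgals3, galectin 3, read 433, 449 and 449.5 CPM in NC and 814, 928 and 945 in BNPMT (0.96 ± 0.07, corrected 0.59), and Car3, a carbonic anhydrase, fell from 175 ± 2.85 to 129 ± 1.47 CPM (-0.49 ± 0.05).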

How the data were processed

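Polyadenylated RNA of 9 libraries was sequenced after TRIzol extraction and VAHTS library preparation, per the labels' protocols. Counts per gene and FPKM were deposited by the authors in separate tables. Each gene's length was computed from its counts, the library totals and its FPKM. fastp, HISAT2, HTSeq and the build mRatBN7.2 are named in the submitters' processing notes, while their versions, the annotation and the strand setting were not given. The deposited FPKM equal count over length and total to rounding, so they hold no separate measurement.

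Counts were fitted in R 4.3.3 with edgeR 4.0.16 (quasi-likelihood test, TMM factors, filterByExpr, 3-group layout of all 9 libraries), which kept 14956 of 22324 genes, with Benjamini-Hochberg adjusted p under 0.05 as the threshold. A second fit added offsets from each library's loess curve (span 0.5) of log2 deviation on log2 gene length. Both were tested on simulated data. Alternatives included DESeq2 1.42.0, limma 3.58.1 on log2(FPKM + 1) and log2(FPKM + 0.1) of genes with a mean FPKM of at least 0.1, and each library left out in turn. Library totals of 31206834 counts or more were reached, and relative counting error is greatest in genes with few counts.

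No pair of libraries agreed within sampling noise (chi-square per degree of freedom of at least 3.40), so none was counted as a duplicate. Groups followed the titles. The rule named a fixed set of 30 genes, the 10 largest rises and falls over 5 CPM, up to 4 members of each list by adjusted p, 8 changes each way shared or not shared with SEN, and 6 genes whose call ended with the correction. Some genes that these rules name are not reported here. Members, lists and rules were chosen with earlier results of these data known. Promoters are from RefSeq, whose assembly GRCr8 differs from the files' build, and were matched by symbol.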

Additional observations from a re-analysis of the deposited data

How the results depend on the processing

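With a 1.5-fold minimum in the test itself, 814 genes passed, 336 higher and 478 lower. The correlation of change with length was -0.32 with no filter on low counts and 0.0052 with the trend removed (0.0031 with BNPMT 1 also left out, 0.0047 with the replicate block). Leaving out 1 library at a time gave 6537 to 8525 called genes (3232 to 4231 higher, 3305 to 4294 lower), 5772 to 7040 with the length correction, and correlations with length from -0.51 to -0.43. Same-numbered libraries of NC and BNPMT deviated from their group means with correlations of 0.058, 0.0071 and 0.035. With so few libraries a group, these cannot settle whether they share an origin, which the labels do not give. A replicate block called 7348 genes, and 6620 with the length correction. By total counts alone 4518 genes were higher and 3364 lower, a split other than with TMM. Direction turned for 6 named genes that were called in the main fit or in the altered one. Glb1 (-0.03 to 0.08 over the settings) and Krt19 (-0.60 to 0.80) also changed sign but passed in no setting. With the length correction, and then with the replicate block as well, Hmgb2 was at -0.25 and -0.25, ND3 at -0.29 and -0.28 and Fasn at 0.0553 and 0.0552. With the correction and without BNPMT 1, Hmgb2 was at -0.22, ND3 at -0.31, Fasn at 0.0449, Tll1 at 0.0155, Prr13 at -0.0071 and Psma2 at -0.0267. Hmgb2 passed without BNPMT 1 (0.18, adjusted p = 0.0126). The cause was not tested. Bcl2, Il6 and Krt19 had means under 1 CPM in NC and BNPMT.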

Other observations

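Counts in the lists not described above are given beside the 26.3% of all genes that rose and the 26.5% that fell, or 23.0% and 23.1% with the length correction. Of 38 tested targets of YAP and TGF-beta signalling, which answer matrix stiffness and the growth factor, 19 fell and 5 rose (median -0.20), and 19 and 6 with the length correction. Tgfb3, one of the ligands, went from 574 ± 3.01 to 380.5 ± 6.08 CPM (-0.64 ± 0.04), with SEN at 101 ± 1.02. Postn, periostin, went from 1051 ± 30.9 to 662 ± 10.9 CPM (-0.72 ± 0.05), with SEN at 1430.1 ± 40.4. Of 16 osteoblast and hypertrophy markers 7 fell (43.8%) and 2 rose (12.5%, Mmp13 and Spp1), and 3 and 3 with the correction. Those called as counted were together near the 52.8% of all genes, but the share that fell was above 26.5%. Alpl, the alkaline phosphatase of mineralising cells, read 3.71, 4.05 and 3.22 CPM in NC and 0.981, 1.03 and 1.14 in BNPMT (-1.85 ± 0.16, edgeR adjusted p = 1.60e-06).

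Of 14 neural and glial markers 6 fell (42.9%) and 2 rose (14.3%), and 5 and 1 with the correction. In all they were near the 52.8% and 46.0% of all genes that were called, but falls outnumbered rises in both fits. The intermediate filament gene Nefm went from 5.00 ± 0.445 to 1.68 ± 0.240 CPM, with 24.7 ± 1.55 in SEN. Of 31 splicing factors of the SR and hnRNP families 7 rose (22.6%) and 11 fell (35.5%). The share that rose was near that of all genes, and the share that fell was above it. Of 23 tested genes that senescence is known to raise 13 rose and 5 fell (median 0.39), and 11 and 6 with the correction (median 0.13). Of 14 that it is known to lower 1 rose (Cbx5) and 7 fell (median -0.18), and 1 and 7 with the correction, where the rise was in Hmgb1 and Cbx5 did not pass.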
